A study of Drosophila melanogaster with 3 samples.

Results

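The genes of translation initiation factors were examined for binding of Pdp1, a PAR-domain basic leucine zipper transcription factor, in embryos of the fruit fly. They were taken as all protein-coding genes of the Ensembl models whose symbol begins with eIF, which gave 44 of the 13945 protein-coding genes on the 6 chromosome arms, and the comparison was with the other 13901. Chromatin immunoprecipitation followed by sequencing was done on whole embryos of both sexes aged 0 to 24 h, in 3 biological replicates that form a single group. All carry the same modified allele, Pdp1-MiMIC-GFP, in which an eGFP exon placed in an intron makes the endogenous gene encode a Pdp1-eGFP fusion, and the fusion was precipitated through GFP. No untagged embryos were analysed here, so the data allow comparisons between genes and between replicates but not between treatments. Since all cell types of the embryo are mixed, strong binding in few cells and weak binding in many cannot be told apart.

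Initiation is the step at which the small ribosomal subunit, carrying the initiator tRNA, is brought to an mRNA and finds the start codon. The ternary complex of eIF2, GTP and initiator tRNA joins the small subunit with the help of eIF1, eIF1A, eIF3 and eIF5, the cap-binding factors of the eIF4 family bring the mRNA, and eIF5B joins the large subunit. The exchange factor eIF2B recharges eIF2 with GTP, and eIF6 keeps free large subunits from joining too early. These factors are used in almost every cell, whereas several fly paralogs of single subunits are known mainly from the testis or germ line.

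A summit, the position of highest enrichment in a peak, was counted for a gene when it lay within 500 bp of one of its annotated transcription start sites (TSSs). The deposited lists comprised a thresholded list of 4622 peaks that had passed an irreproducible discovery rate (IDR) procedure, a relaxed list of 27719 peaks called on the pooled replicates, and a relaxed list of 30000 peaks for each replicate. The signal of a peak is the deposited value of its list, and since no common scale ties the lists together, replicates are compared by rank. Read numbers were not analysed here and the depth is unknown. Replicate 2 stood apart: its relaxed list had promoter summits at 36.7% of the other genes, against 53.7% in replicate 1 and 54.2% in replicate 3.

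Initiation factor genes had promoter summits somewhat more often than other genes. In the thresholded list 14 of 44 had one (31.8%), against a background of 20.6% of the other protein-coding genes. They were eIF6, eIF3c, eIF1, eIF4EHP, eIF3h, eIF3m, eIF5B, eIF3a, eIF4E1, eIF2A, eIF1A, eIF2D, eIF2gamma and eIF4G2. A further 16 had a summit in the pooled relaxed list but not in the thresholded one, which brought the relaxed count to 30 of 44 (68.2%) against 51.1% of other genes. Of the rest, eIF3f2, eIF3i, eIF3j and eIF4B had a summit only in replicate lists, and 10 genes had none in any list: eIF2Balpha, eIF3d2, eIF3g1, eIF3g2, eIF4E3, eIF4E4, eIF4E5, eIF4E7, eIF4G1 and eIF4H2.

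Initiation factor genes had promoter summits at a higher share than other genes in each replicate. In replicate 2 that share was near the background. Among the top 4622 peaks of each replicate, the number matched to the thresholded list, 15 of the 44 genes had a promoter summit in replicate 1 (34.1%, background 21.4%), 9 in replicate 2 (20.5%, background 18.3%) and 16 in replicate 3 (36.4%, background 20.0%). The share was 30.3% ± 8.60 (SD, n = 3) for initiation factors and 19.9% ± 1.52 (SD, n = 3) for other genes. The difference, 10.4 ± 7.38 percentage points (SD, n = 3), was positive in 3 of 3 replicates, with an exact two-sided sign-flip permutation p of 0.25, the smallest that 3 replicates allow, so this test cannot pass 0.05. Without replicate 2 the mean difference was 14.5 points, without replicate 1 it was 9.22 and without replicate 3 it was 7.43. In the whole replicate lists the counts were 30, 18 and 30 genes in replicates 1, 2 and 3, or 68.2%, 40.9% and 68.2%. The backgrounds were 53.7%, 36.7% and 54.2%.

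**Figure D1:**
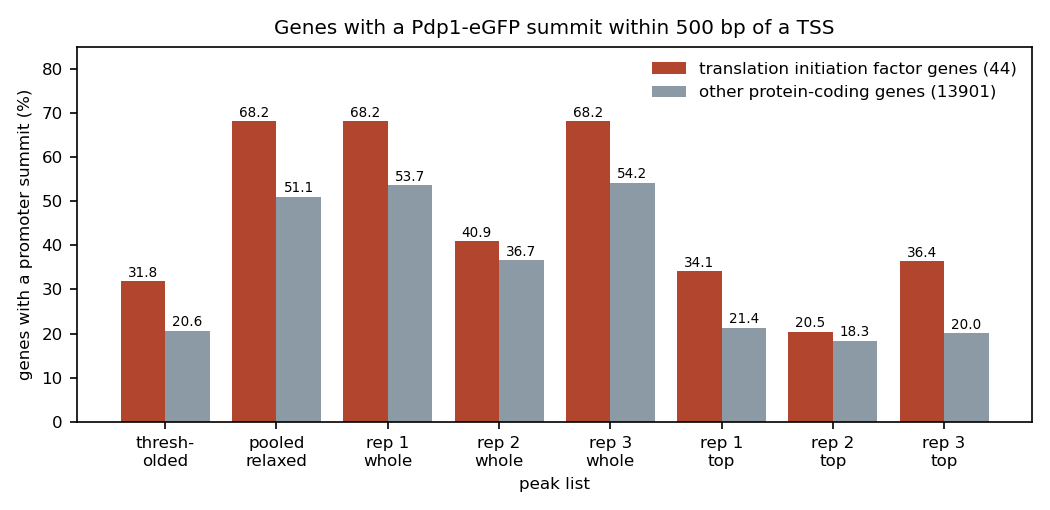
Percentage of genes with a Pdp1-eGFP summit within 500 bp of a TSS in 8 peak lists, for 44 translation initiation factor genes and 13901 other protein-coding genes. The bars of the initiation factors are higher in each list, with 31.8% against 20.6% in the thresholded list, and the gap is smallest in the lists of replicate 2, where it is 2.12 points among the top peaks.

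Support by replicates differed widely among the 14 genes. A promoter summit was among the top 4622 peaks of all 3 replicates for 8 genes (eIF1, eIF1A, eIF3c, eIF3h, eIF3m, eIF4EHP, eIF5B and eIF6), which is 18.2% of the 44, against 13.1% of other genes. Without replicate 2 this count was 12, or 1.5 times as many, against 16.7% of other genes. When only thresholded peaks with a top summit within 100 bp in both remaining replicates were kept, 12 genes were left without replicate 2, 9 without replicate 3 and 8 without replicate 1, against 15.3%, 13.9% and 13.2% of other genes. The 14 genes held 17 thresholded summits. Of these, 16 had a top summit within 100 bp in replicate 1, 10 in replicate 2 and 16 in replicate 3, or 94.1%, 58.8% and 94.1%. For the other thresholded promoter summits the shares were 84.9%, 73.5% and 80.6%.

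The group named for start codon selection and subunit joining had the most complete set. It had thresholded summits at 6 of 7 genes (background 20.6%) and a relaxed summit at the remaining one, eIF5. The group is broader than its name, since eIF2A, eIF2D and eIF6 were placed in it as well. The strongest was at eIF6 (FBgn0034915), the anti-association factor of the large subunit. Its peak at 2R:23850241-23850558 (dm6) had a pooled signal of 897 and rank 96 in the thresholded list, and signals of 315, 375 and 207 in replicates 1, 2 and 3. It ranked 110, 64 and 159 in the 3 replicate lists, so all replicates placed it near the top. The summit lay 111 bp upstream of the TSS, inside an intron of the neighbouring gene ytr.

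At eIF1 (FBgn0035423), which guards the fidelity of start codon choice, 2 thresholded summits lay upstream of the TSS. The outer one, at 3L:3222892-3223116 and 318 bp upstream, had a pooled signal of 399 and replicate signals of 173, 104 and 114. The inner one, at 3L:3223021-3223430 and 115 bp upstream, had 168 and replicate signals of 50.6, 67.1 and 43.0. The outer summit was thus higher in each replicate, and it lay only 63 bp from the TSS of RpL28, a gene of the large ribosomal subunit that is transcribed away from eIF1.

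The other genes of this group had weaker summits with uneven support. At eIF5B (FBgn0026259), the GTPase of subunit joining, the summit 144 bp upstream (3L:3460542-3460951, within the 5' untranslated part of a longer transcript) had a pooled signal of 225 and replicate signals of 91.2, 93.9 and 49.3. At eIF1A (FBgn0026250), the partner of eIF1 on the small subunit, it lay 99 bp upstream (3R:18274361-18274770) with 149 pooled and 50.2, 41.4 and 44.5 in the replicates. These are close in rank, with 3735, 2983 and 3127 of 30000. Replicate 1 also had a stronger eIF1A summit, 218 bp upstream, with a signal of 67.8 and rank 2381. At eIF2A (FBgn0037135), an initiator tRNA-binding protein outside the eIF2 complex, the summit 54 bp upstream of the nearer of 2 TSSs (3L:21824706-21825115, in the untranslated part of a longer transcript) had 185 pooled and 111, 12.0 and 60.2. Replicate 2 placed it at rank 24689, far below replicates 1 (1063) and 3 (1950). At eIF2D (FBgn0041588), linked to recycling and reinitiation, the summit 41 bp upstream (3R:29151630-29152039) had 134 pooled and 63.3, 21.3 and 49.6, again lowest in replicate 2 by rank (2651, 7003 and 2628). The gene eIF5, the GTPase activator of eIF2, had only a weak relaxed summit 369 bp upstream, with a pooled signal of 56.5.

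Genes of eIF2 and of its exchange factor had mostly weak summits. For the 3 subunits of eIF2, a thresholded summit was found at eIF2gamma (FBgn0263740), the GTP-binding subunit, 49 bp upstream at 3R:15263302-15263711. Its pooled signal of 113 is near the lower limit of the thresholded list, 101.8, and it had 38.0 in replicate 1 and 45.9 in replicate 3, with no summit within 100 bp in replicate 2. The genes eIF2beta and eIF2alpha had relaxed pooled summits of 67.4 and 41.1, and neither had one in replicate 2. The gene eIF2alpha encodes the subunit phosphorylated under stress. Its pooled summit lay 479 bp downstream of the TSS, and its only replicate summit, in replicate 3, lay 171 bp downstream. In replicate 3 the strongest summit of eIF2beta, 261 bp upstream of the TSS, ranked 2315, above that of eIF2gamma at 2981. In replicate 1 the strongest summit of eIF2beta was a different one, 407 bp downstream, and ranked below that of eIF2gamma, at 8429 against 5668. The replicate 1 summit 260 bp upstream of the eIF2beta TSS ranked only 21719. None of the 5 eIF2B genes had a thresholded promoter summit, while 4 had a relaxed one, with pooled signals of 69.7 for eIF2Bbeta, 50.6 for eIF2Bgamma, 42.3 for eIF2Bepsilon and 34.8 for eIF2Bdelta. The pooled summit of eIF2Bdelta lay 481 bp downstream of the nearer TSS, close to the edge of the window. The median of the whole pooled list was 43.7.

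The eIF3 complex, the scaffold of the small subunit during initiation, had thresholded summits at 4 of its 13 genes, the second copies left aside, and relaxed summits at 10. The strongest was at eIF3c (FBgn0034258), 34 bp upstream at 2R:17665469-17665784, with a pooled signal of 516 and 203, 202 and 117 in replicates 1, 2 and 3. Its ranks of 311, 243 and 554 were the next highest after those of eIF6 in each replicate. At eIF3h (FBgn0022023) 2 summits lay 248 bp apart, one 273 bp downstream of the TSS in an intron (2L:5052353-5052563, pooled signal 294, replicates 107, 83.7 and 95.9) and one 25 bp downstream in the 5' untranslated region (2L:5052726-5052901, pooled signal 179, with 81.3 in replicate 1 and 79.2 in replicate 3). The inner one had no summit within 100 bp in replicate 2. At eIF3m (FBgn0033902), 94 bp upstream at 2R:14164714-14165123, the pooled signal was 243 and the replicates gave 93.3, 75.4 and 70.0, at ranks of 1405, 1384 and 1501. At eIF3a (FBgn0037249), the largest subunit, the summit 52 bp upstream (3R:4433742-4434151) had 212 pooled, 95.3 in replicate 1 and 89.6 in replicate 3, and was missing from replicate 2.

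Further eIF3 genes had summits below the limit of the thresholded list, with eIF3k directly under it. Its summit had a pooled signal of 101.7 and rank 4627 in the pooled list, against a lowest thresholded signal of 101.8 and 4622 thresholded peaks. It had 49.2, 14.8 and 26.2 in the replicates. Next came eIF3f1 with 95.2, eIF3d1 with 85.4, eIF3b with 65.2, eIF3e with 60.3 and eIF3l with 49.9. All of these lay above the median of the whole pooled list, and the widest step among the genes of the complex by ratio was between eIF3a, with 212, and eIF3k. Over all 16 initiation factor genes found in the pooled relaxed list only, the strongest pooled signal ran from 30.2 to 101.7 with a median of 58.4.

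**Figure D2:**
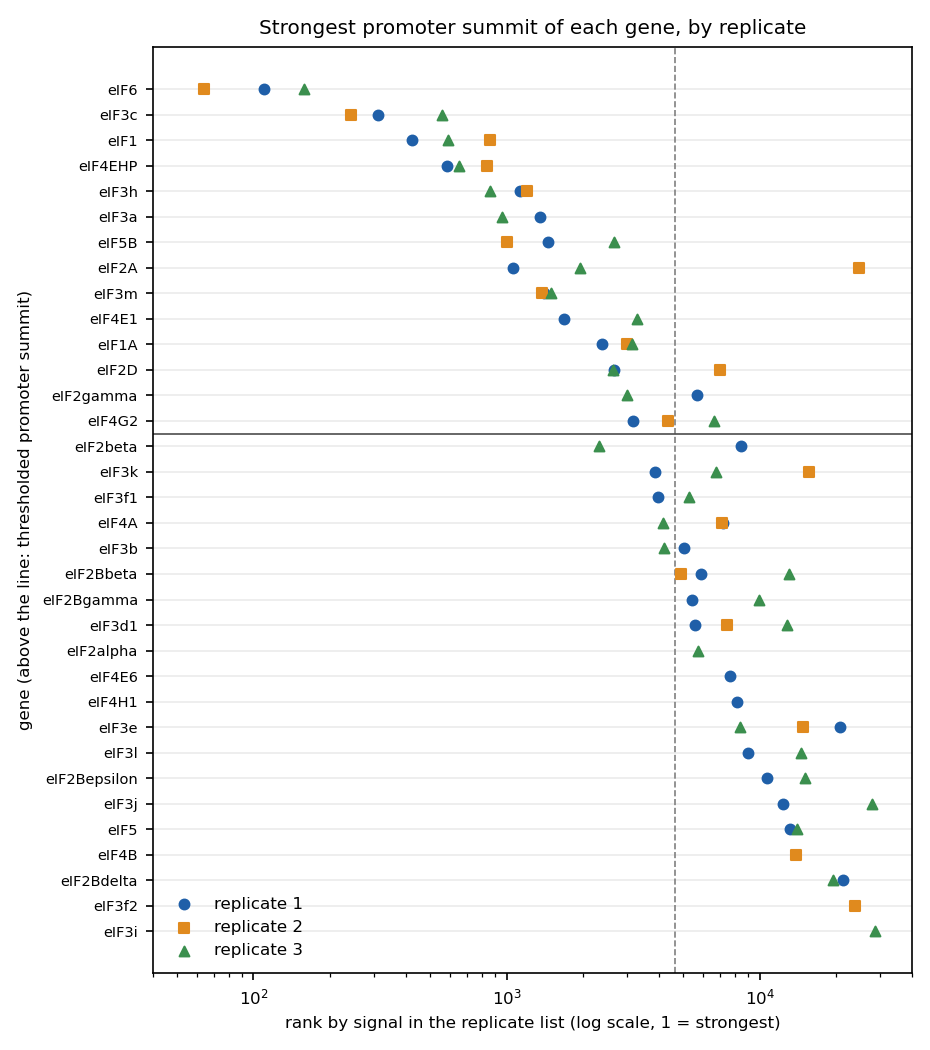
Rank by signal, on a log scale, of the strongest promoter summit of each of 34 initiation factor genes in the relaxed lists of replicates 1 (circles), 2 (squares) and 3 (triangles); the dashed line marks rank 4622 and genes above the solid line have a thresholded promoter summit. A missing symbol means no promoter summit in that replicate's list. eIF6 leads in all replicates with ranks of 110, 64 and 159, and replicate 2 places eIF2A far to the right at 24689.

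Among the cap-binding and mRNA-recruiting factors, 2 of 6 genes had thresholded summits, and both encode cap-binding proteins. At eIF4EHP (FBgn0053100), a homologue of eIF4E that binds the cap without eIF4G and is known to repress mRNAs in the embryo, 2 summits lay 200 bp apart. The inner one, 127 bp upstream (3R:24108988-24109190), had a pooled signal of 356, with 152 in replicate 1 and 108 in replicate 3. The outer one, 327 bp upstream (3R:24109191-24109364), had 294 and replicate signals of 129, 105 and 62.5. Replicate 2 had only the outer summit. At eIF4E1 (FBgn0015218), the main cap-binding protein, the summit 28 bp upstream (3L:9402283-9402692) had 189 pooled, 83.6 in replicate 1, 43.3 in replicate 3, and was absent from replicate 2. The helicase gene eIF4A, with relaxed summits of 67.3 and 36.5 in the pooled list, stayed below the threshold, as did eIF4H1 with 53.4. The scaffold gene eIF4G1, on the small chromosome 4, had no summit in any list, and eIF4B, at 3L:27842669-27858271, had one only in replicate 2, with a signal of 15.6 and rank 13878.

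The second copies of single subunits had few summits. Of the 10 genes eIF3d2, eIF3f2, eIF3g2, eIF4E3, eIF4E4, eIF4E5, eIF4E6, eIF4E7, eIF4G2 and eIF4H2, 1 had a thresholded and 2 a relaxed pooled promoter summit, against 13 (38.2%) and 28 (82.4%) of the other 34 initiation factor genes. The background shares of other protein-coding genes were 20.6% and 51.1%. With 10 genes, a thresholded count of 1 is not far from its background. The gene with a thresholded summit was eIF4G2 (FBgn0260634), whose product is known to act in spermatogenesis. Its summit, 42 bp upstream at 3R:23819074-23819483, had a pooled signal of 112 and 56.6, 29.7 and 26.6 in the replicates. It lay in an intron of CG34355, and eIF4G2 shares this TSS with CG33111, so the peak cannot be assigned to eIF4G2 alone.

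**Figure D3:**
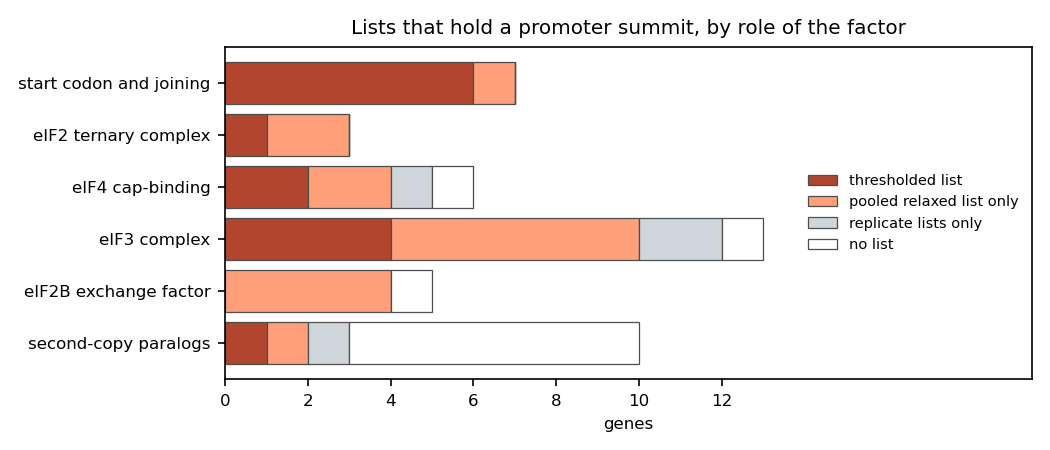
Number of initiation factor genes in each role group by the most stringent list that holds a promoter summit: thresholded, pooled relaxed only, replicate lists only, or none. The start codon and joining group has 6 of 7 genes in the thresholded list, eIF2B has 0 of 5, and 7 of the 10 second copies have no summit in any list.

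Many of these promoters were shared. Of the 14 genes with a thresholded summit, 8 (57.1%) had one that also lay within 500 bp of the TSS of another protein-coding gene, close to the 60.3% of other genes with such a summit. Neighbours on the opposite strand were RpL28 for eIF1, with TSSs 381 bp apart, CG18428 for eIF4EHP (376 bp), CG8323 for eIF3m (226 bp), Vps39 for eIF1A (219 bp), Set for eIF2gamma (94 bp), CG1074 for eIF3a (70 bp) and senju for eIF3h (63 bp). The gene Su(var)3-9, which encodes a histone H3 methyltransferase, has the same TSS as eIF2gamma. Several summits were nearer to the neighbour: that of eIF3a lay 18 bp from the TSS of CG1074, and the outer one of eIF4EHP 49 bp from that of CG18428. When each summit was credited only to the gene with the nearest TSS, 12 of the 44 genes (background 15.2%) were left.

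The number of TSSs and the presence of a neighbour moved with the count. Of the 29 initiation factor genes with 1 annotated TSS, 5 had a thresholded summit (17.2%), near the 16.1% of other genes with 1 TSS. With the second copies of single subunits left aside, the count was 5 of 20. The second copies removed here had no thresholded summit, and no such genes were removed from the other genes. This share is therefore not comparable with that 16.1%. Of the 15 initiation factor genes with 2 or more TSSs, 9 had a thresholded summit (60.0%), against 33.2% of other such genes. Genes with a neighbour's TSS within 1000 bp had summits at 11 of 23 (47.8%, others 33.4%), and those without at 3 of 21 (14.3%, others 11.0%). Initiation factor genes fell more often into the classes with high shares: 34.1% had 2 or more TSSs, against 26.5% of other genes, and 52.3% had a neighbour's TSS within 1000 bp, against 42.9%. The part of TSS number and of neighbours in the higher share was not tested.

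The thresholded summits sat close to the start sites. Relative to the nearest TSS of the gene, the 17 summits ran from -327 to 273 bp with a median of -54 bp, against a median of -130 bp for the 3218 pairs of a summit and another gene. Upstream of the TSS lay 15 of the 17 (88.2%), the same share as for other genes (88.3%), and within 150 bp upstream lay 13 (76.5%) against 44.9%. A window of 200 bp therefore kept all 14 genes, while the share of other genes fell to 14.8%. The median offset was -43 bp among the top peaks of replicate 1, -109 bp in replicate 2 and -67.5 bp in replicate 3, so the median moved between replicates by nearly as much as it differed from that of other genes in the thresholded list. By signal, the 17 summits had a median rank of 947 among 2257 thresholded promoter summits, against 1130.5 for the others, with median signals of 212 and 188.

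**Figure D4:**
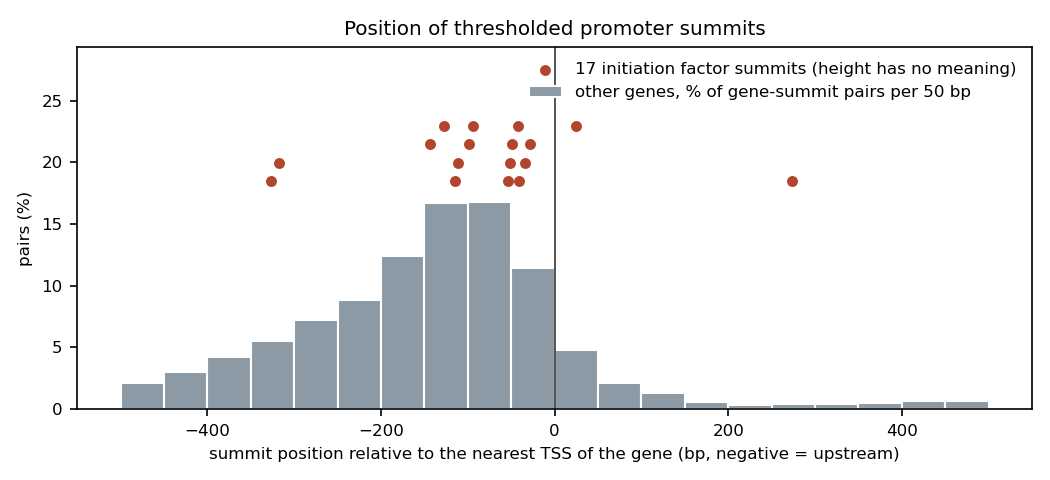
Position of thresholded promoter summits relative to the nearest TSS of the gene, in bp with negative values upstream, as percentages of 3218 pairs of summit and other gene (bars, 50 bp bins) and as 17 points for initiation factor genes. Of the 17 points, 13 lie within 150 bp upstream, and the 2 downstream points belong to eIF3h.

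The summits that replicate 2 lacked had a higher median content of G and C, with overlapping ranges. The 5 summits without a match within 100 bp anywhere in its list (eIF4EHP inner, eIF3a, eIF4E1, eIF3h inner and eIF2gamma) had a median of 51.5% G and C within 50 bp, against 36.6% for the 12 matched ones. The unmatched summits ran from 31.7% (eIF4EHP inner) to 55.4%, and the matched ones from 19.8% to 50.5%. Over all thresholded promoter summits the medians were 39.6% for 398 unmatched and 34.7% for 1859 matched. All 17 initiation factor summits had a median of 45.5%, above the 35.6% of other promoter summits. The part of base composition in the lower counts of replicate 2 was not tested.

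Windows reaching 50 bp to either side of each summit were searched for exact matches to 6 motifs on both strands. The DNA replication-related element TATCGATA, the palindrome bound by the factor DREF, was found most often. It was at 4 of 17 summits, those of eIF1 (outer), eIF3a, eIF2A and eIF2gamma, and at 4.21% of all 2257 thresholded promoter summits. The 4 windows of 101 bases are shown because they carry that match, in capitals, written 5' to 3' on the strand of the initiation factor gene (RefSeq Release 6 sequence, dm6 coordinates, with the summit at the centre). That of eIF2gamma was added after its match had been seen and holds the element in 3 places. In the eIF2A window the second run in capitals is GTGTGACC, the reverse complement of GGTCACAC, a core of promoter motif 1, which was at 1.73% of all promoter summits.
eIF1 (chr3L:3222973-3223073, plus strand): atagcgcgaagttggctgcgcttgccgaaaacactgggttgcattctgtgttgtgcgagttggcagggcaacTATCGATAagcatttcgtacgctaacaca
eIF3a (chr3R:4433897-4433997, minus strand): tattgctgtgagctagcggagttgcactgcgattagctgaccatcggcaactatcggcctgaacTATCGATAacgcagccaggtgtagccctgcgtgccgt
eIF2A (chr3L:21824861-21824961, plus strand): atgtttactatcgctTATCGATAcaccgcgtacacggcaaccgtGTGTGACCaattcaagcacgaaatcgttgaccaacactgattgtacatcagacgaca
eIF2gamma (chr3R:15263457-15263557, minus strand): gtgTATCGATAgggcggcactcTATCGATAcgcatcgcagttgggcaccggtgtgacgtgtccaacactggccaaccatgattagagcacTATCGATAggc

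The sites of PAR bZIP factors, TTACGTAA and TTATGTAA, were at 0 of the 17 summits, and at 0.133% and 1.02% of all promoter summits. The E-box CACGTG and the ATF4-type site TTGCATCA were also at 0 of 17, with 1.11% and 0.266% of all promoter summits. With such low shares, 17 summits are too few to read anything from a count of 0. Over whole peaks, TTATGTAA was in 1 of the 17, at eIF4EHP, against 3.28% of thresholded promoter peaks. CACGTG was in 1, at eIF2A, against 5.63%, and TTACGTAA and TTGCATCA were in 0. The windows of eIF4EHP (inner), eIF5B and eIF4E1 hold no exact match to any of the 6 motifs and are shown for contrast. Near matches were not counted, such as AATCGATA in the eIF4E1 window and GTATGTAA in that of eIF4EHP.
eIF4EHP (chr3R:24109037-24109137, minus strand): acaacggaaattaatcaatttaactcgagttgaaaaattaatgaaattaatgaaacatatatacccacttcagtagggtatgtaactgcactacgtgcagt
eIF5B (chr3L:3460697-3460797, minus strand): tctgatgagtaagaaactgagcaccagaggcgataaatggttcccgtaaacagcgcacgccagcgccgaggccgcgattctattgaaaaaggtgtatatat
eIF4E1 (chr3L:9402438-9402538, minus strand): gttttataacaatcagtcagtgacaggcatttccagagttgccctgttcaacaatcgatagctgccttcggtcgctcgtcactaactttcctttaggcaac

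In a wider window, from 250 bp upstream to 50 bp downstream of any TSS, TATCGATA was present at 13 of the 44 initiation factor genes (29.5%) and at 10.1% of other genes. It was at 6 of the 14 genes with a thresholded summit (eIF1A, eIF2A, eIF2gamma, eIF3a, eIF3c and eIF6) and at 7 of the 30 without (23.3%). Among other genes the shares were 16.7% with and 8.39% without a thresholded summit. In that window GGTCACAC was at 8 of 44 genes (18.2%, other genes 8.68%), and TTATGTAA was at 1, eIF2Bdelta. The sequence TCTTT, the core of the TCT initiator of translation genes, lay on the sense strand within 10 bp of a TSS at 5 of 44 genes (eIF3d1, eIF3g1, eIF3i, eIF3m and eIF4A), or 11.4%, against 3.36% of other genes. Of these 5, eIF3m had a thresholded summit. Relative to the TSS, the match began at -9 bp in eIF3d1, 6 bp in eIF3g1, 4 bp in eIF3i and 3 bp in eIF4A. None of these matches spans the TSS. The positions in eIF3m and in other genes are not given here. The shares therefore count the sequence near a TSS, whether or not it forms a TCT initiator in place.

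Away from the promoters, 3 thresholded summits lay in introns of 2 of the 44 initiation factor genes, and the share for other genes was not computed. Of these, eIF4EHP had one 9840 bp from its TSS (3R:24098915-24099324, pooled signal 251), and eIF5B had 2, at distances of 21982 and 27805 bp, with signals of 139 and 111. Just beyond the window of 500 bp lay 2 further summits. The one 678 bp upstream of eIF2Bbeta (X:2703678-2704107) is the strongest peak of the thresholded list, with a pooled signal of 3424, and lies at the promoter of the adjacent gene Ugalt, while the summit 18 bp upstream of the eIF2Bbeta TSS had a pooled signal of 69.7. The other, 734 bp upstream of eIF2Bdelta, had a signal of 136 and lies at CG30414.

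Other genes of translation were compared through a list of 30, of which 2 were matched by a synonym. Thresholded promoter summits were found at 14 of the 30 (46.7%, background 20.6%). Elongation factors had 4 of 7, the strongest at eEF1gamma with a signal of 362 and at eEF1alpha1, which delivers aminoacyl-tRNA, with 293. In the replicates eEF1alpha1 had 122, 97.1 and 86.0, while eEF1gamma had 207, 31.8 and 132, lowest in replicate 2. Termination and recycling factors had 3 of 5, with HBS1 at 231, eRF1 at 203 and pix, which splits ribosomes, at 163.

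Of the 18 genes listed as regulators of initiation, 7 had thresholded summits. They included mTor (signal 278), pAbp, the poly(A)-binding protein gene (249, with the summit 471 bp downstream of a TSS), and Thor, which encodes the repressor of eIF4E (162). The replicate values of Thor were 76.5 in replicate 1 and 63.7 in replicate 3, with no promoter summit in replicate 2. The others were MCTS1 (181), mxt, an eIF4E-binding protein gene (136), NAT1, a relative of eIF4G (111), and Elp6 (511), listed as poly. The place of Elp6 among regulators of initiation rests on that list alone. The kinase genes PEK and Gcn2, which phosphorylate eIF2alpha, and crc, the fly ATF4 gene, had relaxed summits only, and 4E-T and DENR had none in the pooled list or in any replicate. These genes were chosen with earlier results of these data known, so the counts describe the list and are not independent evidence.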

How the data were processed

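The peak signal values were used as the authors deposited them, in narrowPeak lists with dm6 coordinates. Per the listings that accompany the lists, each replicate list was called against a control, a further list was called on the pooled replicates, and the thresholded list derives from these by IDR. Which aligner and which peak caller were used is not given in the sources used here, and lists in dm3 coordinates were not used. Summits were the peak start plus the deposited offset, on 6 chromosome arms. TSSs were those of protein-coding transcripts in Ensembl release 115, and no peak reached past the end of an arm of the Release 6 sequence. Python 3.11.15, numpy 2.4.6 and pandas 2.3.3 were used, and the search for summits was tested on simulated summits. A summit took its replicate values from the closest summit of each replicate list, up to 100 bp away.

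Shares are described without a set test. The only test was an exact sign-flip permutation over 3 replicates. The labels call the replicates biological, and nothing further about their origin was used. Every initiation factor gene was accounted for, each with a thresholded promoter summit being named with its values. Genes, lists, role groups and motifs were chosen with earlier results of these data known. Alternatives were other TSS windows, peak sets, TSS choices, gene assignment, motif windows and leaving out each replicate.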

Additional observations from a re-analysis of the deposited data

How the results depend on the processing

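The count of initiation factor genes with a thresholded promoter summit, 14, was 14 within 200 bp, 16 within 1000 bp, 10 among the peaks above the median signal of the list, 12 with the nearest gene only and 14 with canonical TSSs only. It was 30 in the pooled relaxed list, 8 with support in all 3 replicates, and from 8 to 12 when a replicate was left out. The difference from other genes, 11.2 points, stayed positive under each of these settings, from 4.97 without replicate 1 to 17.1 in the pooled relaxed list. Its mean over the replicate top lists, 10.4 points, ran from 7.43 to 14.5 when a replicate was left out, where 2 replicates allow no exact p under 0.5, and from 10.9 to 13.1 under the other settings. The 8 genes found in the top lists of all replicates became 16 in the whole lists, 6 within 200 bp or with the nearest gene only, 10 within 1000 bp, and 8 to 12 when a replicate was left out. The median offset of -54 bp moved to -94 bp within 1000 bp and to -109 bp in replicate 2. The median rank of the summits, at 42.0% of the promoter summits counted from the strongest, moved to 32.4% in replicate 2. Summits with any of the 6 motifs, 4 of 17, became 2 within 25 bp, 5 within 100 bp and 9 in whole peaks, against 8.11%, 3.85%, 17.1% and 26.5% of all promoter summits within 50, 25 and 100 bp and in whole peaks. Except where fewer or more peaks were counted by construction, the cause of these shifts was not tested. Depth is unknown, so a gene without a summit is only one without a call.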
